A study of Mus musculus with 12 samples.

Results

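The 9 genes described here encode a growth factor, a cytokine, matricellular proteins, a protease inhibitor and intracellular targets of mechanical signalling: Hbegf, Csf1, Cyr61 (now Ccn1), Ctgf (now Ccn2), Thbs1, Tnc, Timp1, Lmcd1 and Amotl2. They were taken by symbol from a table of 47643 gene identifiers, and all 9 were found in it. Of the 9, 5 had enough reads for a test among the 6676 genes tested. Reads from the 3' ends of mRNA were counted in a calf muscle, the gastrocnemius, of 6 female C57BL/6J mice aged 11 weeks. The 12 libraries formed 4 groups of 3: contracted right legs with c-myc over-expression, contracted right legs of controls, uncontracted left legs with c-myc over-expression, and uncontracted left legs of controls. The labels do not say how c-myc, which encodes a transcription factor of cell growth, was over-expressed, nor at what time after the contractions tissue was collected. Body side and contraction cannot be told apart, since the right leg was the contracted one in every animal.

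HB-EGF, the product of Hbegf, is made as a membrane-anchored ligand of the EGF receptor family and is released by metalloproteinases. YAP and its relative TAZ (encoded by Wwtr1) move into the nucleus of cells under tension and act through TEAD proteins, and Cyr61, Ctgf and Amotl2 are among their best known targets. CYR61 and CTGF are matricellular proteins, which sit in the extracellular matrix and signal through integrins. Thrombospondin 1 (Thbs1) and tenascin C (Tnc) are matricellular proteins of injured or loaded tissue. TIMP1 inhibits matrix metalloproteinases, CSF1 is the growth factor of macrophages, and LMCD1 (also called dyxin) is a LIM-domain protein that restrains the transcription factor GATA6.

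Total counts were 1371732 to 1643216 per library, so that 1 read was worth 0.601 to 0.775 CPM (read counts scaled to a common library size with TMM factors). Muscle fibre genes gave 95794 to 124476 summed CPM in contracted and 108010 to 132447 in uncontracted legs. Myc itself, which checks the labels, had 32, 0 and 2 reads in contracted Myc legs 1, 2 and 3, against 1, 10 and 59 in contracted control legs. It had 11, 9 and 9 reads in uncontracted Myc legs, against 0, 1 and 0 in uncontracted control legs. In contracted legs, the Myc reads of libraries 2 and 3 of either genotype thus go against the order of their genotype labels. In animals labelled control, Myc was higher in contracted legs by 5.72 ± 1.59 on the log2 scale (SE), which did not pass (edgeR adjusted p = 0.0591). Whether contraction or a wrong label set these reads was not tested. Contraction was therefore also estimated as the average over both genotypes, which does not use the genotype label of a contracted leg as a contrast. All groups, changes within a genotype and pairs of legs of 1 animal below follow the labels as deposited.

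The promoters of 4 genes are shown because they are members with a match to a motif of a transcription factor that acts in mechanical or immediate early signalling. Of the 9 genes, 6 had a promoter in the RefSeq table (build GRCm38.p6), running from 250 bases before to 50 bases from the start. Each window is printed 5′ to 3′ on the gene's own strand, with the motif matches in capitals. Lmcd1 is on the plus strand (chr6:112273508-112273807), Timp1 on the plus strand (chrX:20869916-20870215), Cyr61 on the minus strand (chr3:145649936-145650235) and Amotl2 on the plus strand (chr9:102717554-102717853).
Lmcd1: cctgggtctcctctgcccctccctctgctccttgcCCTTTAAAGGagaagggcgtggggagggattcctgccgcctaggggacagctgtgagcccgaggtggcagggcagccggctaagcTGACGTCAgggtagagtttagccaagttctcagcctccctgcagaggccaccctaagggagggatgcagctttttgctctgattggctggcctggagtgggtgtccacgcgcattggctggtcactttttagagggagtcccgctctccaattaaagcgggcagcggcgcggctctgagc
Timp1: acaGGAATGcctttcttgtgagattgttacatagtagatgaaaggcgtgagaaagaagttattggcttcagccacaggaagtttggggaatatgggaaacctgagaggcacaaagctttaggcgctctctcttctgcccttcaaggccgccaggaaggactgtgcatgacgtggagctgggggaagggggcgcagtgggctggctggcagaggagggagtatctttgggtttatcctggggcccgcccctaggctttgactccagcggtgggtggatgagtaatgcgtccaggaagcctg
Cyr61: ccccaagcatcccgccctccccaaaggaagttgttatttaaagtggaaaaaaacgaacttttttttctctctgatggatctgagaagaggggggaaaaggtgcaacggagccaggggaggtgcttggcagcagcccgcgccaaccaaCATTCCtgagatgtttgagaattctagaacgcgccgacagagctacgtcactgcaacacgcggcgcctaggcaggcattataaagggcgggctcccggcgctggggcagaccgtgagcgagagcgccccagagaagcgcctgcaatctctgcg
Amotl2: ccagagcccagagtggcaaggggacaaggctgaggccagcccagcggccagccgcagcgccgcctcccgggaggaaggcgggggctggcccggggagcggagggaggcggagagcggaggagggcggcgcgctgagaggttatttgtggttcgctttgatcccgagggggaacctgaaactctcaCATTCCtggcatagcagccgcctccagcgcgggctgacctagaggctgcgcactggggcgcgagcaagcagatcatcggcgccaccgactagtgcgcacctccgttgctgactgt

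Both strands were searched for a TEAD motif (GGAATG), an AP-1 motif (TGANTCA), a cyclic AMP response element (TGACGTCA), an E-box (CACGTG, the letters that MYC and MAX bind) and the CArG box of SRF. The TEAD letters were found in Timp1 247 bases before the start, and as their reverse complement, CATTCC, in Cyr61 103 and in Amotl2 65 bases before it. They occur in 14.7% of all 32851 promoter windows of the same length. Lmcd1 held a cyclic AMP response element 130 and a CArG box 215 bases before the start, motifs present in 1.79% and 1.63% of windows. AP-1 and E-box letters, present in 7.81% and 7.15% of windows, were in none of the 6 members' promoters, and the windows of Csf1 and Tnc held none of the motifs. No match overlapped another. These are matches of letters and were not tested for binding.

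Hbegf, on chromosome 18 (36504927 to 36515805, minus strand, GRCm38), was higher in contracted than in uncontracted legs in every animal of both genotypes. It stood at 70.4, 119 and 114 CPM in contracted legs labelled Myc 1, 2 and 3 and at 87.5, 121 and 122 CPM in contracted legs labelled control. The uncontracted legs had 15.1, 15.7 and 17.8 CPM with the Myc label and 19.8, 11.5 and 20.8 CPM with the control label. No contracted library overlapped an uncontracted one, and the animals numbered 1 had the lowest contracted level in both genotypes. Averaged over genotypes the log2 change of contracted over uncontracted legs was 2.65 ± 0.17 (SE, edgeR adjusted p = 3.57e-10), a 6.28-fold difference. The change was 2.65 ± 0.24 in Myc animals (adjusted p = 2.36e-07) and 2.66 ± 0.23 in controls (adjusted p = 2.78e-07), and the difference between these changes was -0.01 ± 0.36 (adjusted p = 0.999, edgeR). Between the legs of 1 animal the ratio ran from 4.43 in control 1 to 10.6 in control 2.

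By group, Hbegf averaged 110 ± 19.7 CPM in contracted control legs and 101 ± 26.6 CPM in contracted Myc legs (SD, n = 3 each). It averaged 17.3 ± 5.11 CPM in uncontracted control legs and 16.2 ± 1.42 CPM in uncontracted Myc legs. In that order the groups of the same leg differed by less than their SD, and only the step between contracted and uncontracted legs exceeded it. The log2 difference of Myc over control was -0.12 ± 0.19 in contracted and -0.11 ± 0.29 in uncontracted legs, and neither passed (edgeR adjusted p = 0.999 and 0.971).

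**Figure D1:**
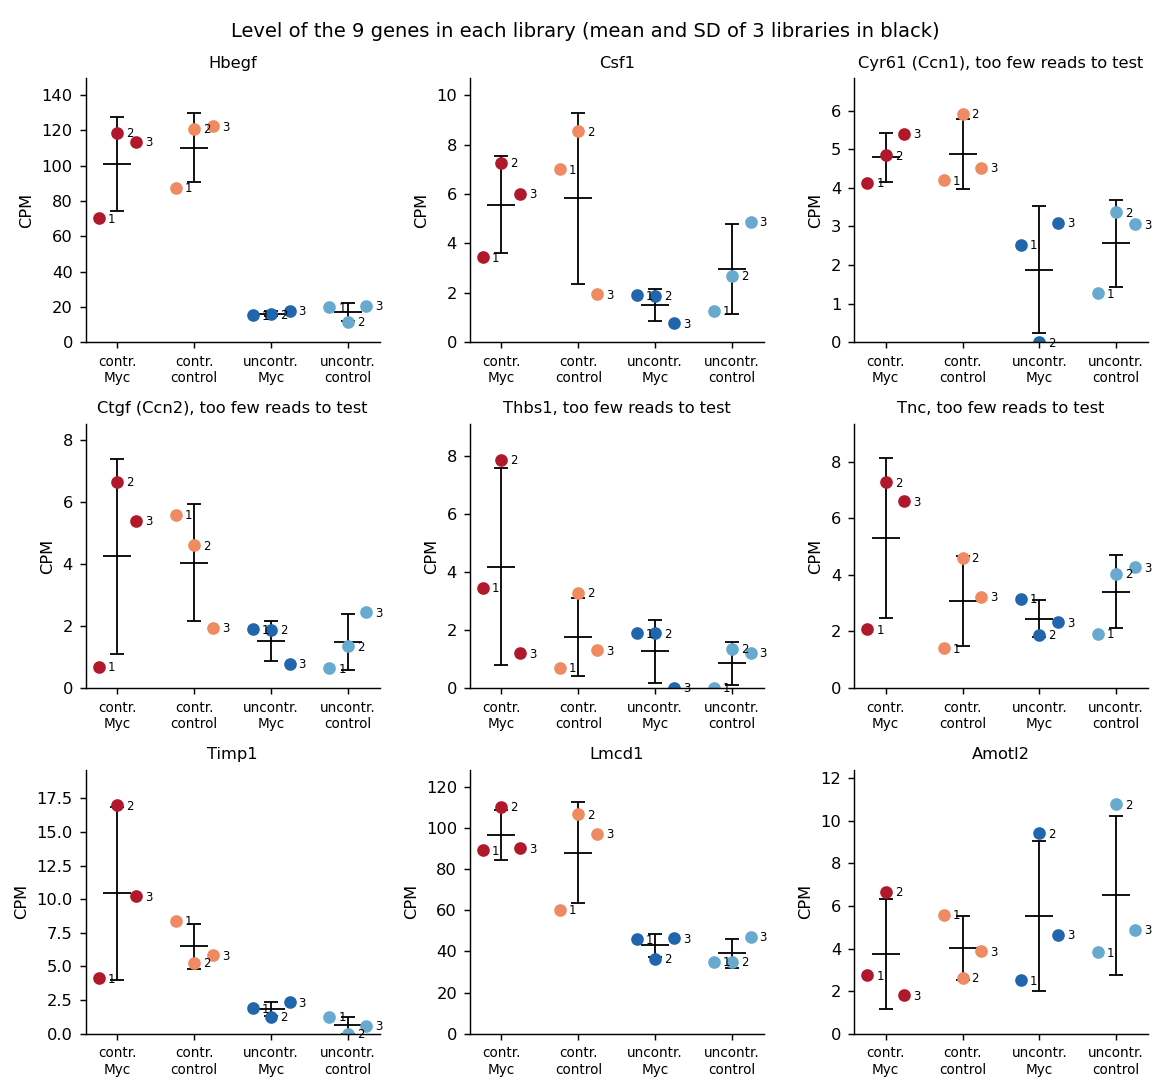
CPM of the 9 genes (y axis, from 0) in each of the 12 libraries, by group on the x axis, with the replicate number beside each point and the mean and SD of 3 libraries in black. Hbegf, Lmcd1, Timp1 and Cyr61 lay higher in all 6 contracted than in all 6 uncontracted libraries, while the other 5 genes overlapped between legs.

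Csf1, the other secreted signalling factor of the set (chromosome 3, 107741048 to 107760469), had few reads. It stood at 3.45, 7.27 and 6.01 CPM in contracted Myc legs and 7.0, 8.55 and 1.94 CPM in contracted control legs. The uncontracted legs had 1.89, 1.88 and 0.775 CPM with the Myc label and 1.27, 2.70 and 4.89 CPM with the control label. The legs overlapped because contracted control 3 was the lowest contracted library and uncontracted control 3 the highest uncontracted one, and 5 of 6 animals had more in the contracted leg. The averaged log2 change was 1.37 ± 0.43 (edgeR adjusted p = 0.0530) and did not pass. It passed without contracted control 3 (adjusted p = 0.0179), contracted Myc 1 (0.0296) or uncontracted control 3 (0.0339), and with no low-count filter (0.0161). On leaving out any 1 of the other 9 libraries it did not pass, with an edgeR adjusted p of up to 0.187.

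Cyr61 and Ctgf, the classic YAP targets of the set, and Thbs1 and Tnc had too few reads to enter the fit, so their levels were compared by an exact 2-sided permutation test of 6 contracted against 6 uncontracted libraries, whose smallest possible p is 0.00216. These p-values were not adjusted, and this test ignores genotype. Cyr61 (chromosome 3, 145646976 to 145649981) had 4.14, 4.85 and 5.41 CPM in contracted Myc legs and 4.20, 5.92 and 4.53 CPM in contracted control legs. It had 2.52, 0 and 3.10 CPM in uncontracted Myc legs and 1.27, 3.37 and 3.05 CPM in uncontracted control legs. All 6 contracted libraries lay above all uncontracted ones, although each value rests on at most 9 reads. The means were 4.84 ± 0.705 CPM in contracted and 2.22 ± 1.32 CPM in uncontracted legs (SD, n = 6 each, exact permutation p = 0.00216, the smallest possible). Exact sign flips within the paired legs of each animal gave p = 0.0312, the smallest that test can give. Pooled, 45 contracted reads stood against 20 uncontracted reads, a normalised ratio of 2.23 (95% exact interval 1.29 to 3.98, which covers counting error only). In edgeR with no low-count filter the averaged log2 change was 1.15 ± 0.41 and did not pass over all genes (adjusted p = 0.102).

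Ctgf (chromosome 10, 24595442 to 24598683) was less even. It had 0.690, 6.67 and 5.41 CPM in contracted Myc legs and 5.60, 4.61 and 1.94 CPM in contracted control legs, against 1.89, 1.88 and 0.775 CPM in uncontracted Myc legs and 0.637, 1.35 and 2.44 CPM in uncontracted control legs. Contracted Myc 1 and contracted control 3 lay within the uncontracted range, and in 4 of 6 animals the contracted leg was higher. These libraries held 32 and 59 Myc reads, the most of the 12. Contracted control 2, with 10 Myc reads, lay above the uncontracted range of Ctgf at 4.61 CPM. This was seen after the values were known, and the part of Myc in the Ctgf level was not tested. The means were 4.15 ± 2.33 CPM in contracted and 1.5 ± 0.705 CPM in uncontracted legs (SD, n = 6 each, exact permutation p = 0.0368, and 0.125 for exact sign flips within the paired legs of each animal). Leaving out 1 library gave exact permutation p-values of 0.00433 to 0.0628, with p over 0.05 without contracted Myc 2 or 3, contracted control 1 or 2, or uncontracted control 1. The pooled ratio of 39 to 14 reads was 2.76 (95% exact interval 1.46 to 5.50), and edgeR with no low-count filter gave an adjusted p = 0.0515. A transcript on the opposite strand, Gm15270, shares 665 exon bases with Ctgf but had 2 reads in the 12 libraries.

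The larger matricellular genes did not pass. Thbs1 (chromosome 2, 118111876 to 118127133) had 3.45, 7.88 and 1.20 CPM in contracted Myc legs and 0.700, 3.29 and 1.29 CPM in contracted control legs. In uncontracted legs it had 1.89, 1.88 and 0 CPM with the Myc label and 0, 1.35 and 1.22 CPM with the control label. Contracted Myc 2 held 13 of the 28 contracted reads. With contracted Myc 1 and contracted control 2 it lay above the uncontracted range, and the other 3 contracted libraries lay within it. The exact permutation p was 0.0866 (n = 6 each), 0.0390 without contracted control 1, and 0.0312 for exact sign flips within animals, the smallest that test can give, since all 6 animals had a higher CPM in the contracted leg. That direction rests on few reads, with 2 reads in each leg of control 3 (a ratio of 1.06 from library size), 1 against 0 in control 1 and 2 against 0 in Myc 3. The pooled ratio of 28 to 10 reads was 2.77 (1.31 to 6.39), and 1.81 without contracted Myc 2.

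Tnc (chromosome 4, 63959785 to 64047015) had 2.07, 7.27 and 6.61 CPM in contracted Myc legs and 1.4, 4.61 and 3.23 CPM in contracted control legs. In uncontracted legs it had 3.15, 1.88 and 2.32 CPM with the Myc label and 1.91, 4.04 and 4.28 CPM with the control label. The legs overlapped, 3 of 6 animals had more in the contracted leg, and the exact permutation p was 0.273 (n = 6 each). The pooled ratio of 40 to 27 reads was 1.47 with an exact interval of 0.878 to 2.48.

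Timp1 (chromosome X, 20870166 to 20874735) was higher in contracted legs of both genotypes, though on few reads. It entered the fit through its contracted reads, so its p-values below depend on the legs where it was high. It had 4.14, 17.0 and 10.2 CPM in contracted Myc legs and 8.4, 5.26 and 5.82 CPM in contracted control legs. The uncontracted legs had 1.89, 1.26 and 2.32 CPM with the Myc label and 1.27, 0 and 0.611 CPM with the control label, that is, at most 3 reads each. No contracted library overlapped an uncontracted one. The averaged log2 change was 2.85 ± 0.46 (edgeR adjusted p = 0.000236), with 2.51 ± 0.56 in Myc animals (adjusted p = 0.00936) and 3.18 ± 0.75 in controls (adjusted p = 0.0177). Within a genotype the call rests on single libraries. In Myc animals leaving out contracted Myc 2 gave an adjusted p = 0.136 and leaving out uncontracted Myc 2 gave 0.0733 in edgeR, and in controls leaving out uncontracted control 2 gave 0.0916 and leaving out uncontracted control 3 gave 0.0796. Averaged over genotypes, it was at most 0.00127 without any 1 library.

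Among contracted legs Timp1 was lowest in the libraries labelled Myc 1, control 2 and control 3, which held 32, 10 and 59 Myc reads, and higher in those labelled control 1, Myc 3 and Myc 2, which held 1, 2 and 0. This was seen after the values were known and was not tested. By label, the log2 difference of Myc over control was 0.71 ± 0.44 in contracted and 1.38 ± 0.97 in uncontracted legs (edgeR adjusted p = 0.999 and 0.848). Timp1 lies inside the gene of the synaptic protein Syn1 on the opposite strand, with no shared exon bases, and Syn1 had 3 reads in all.

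Lmcd1 (chromosome 6, 112273758 to 112330425) rose in contracted legs of both genotypes. It stood at 89.0, 110 and 90.1 CPM in contracted Myc legs and 60.2, 107 and 97.0 CPM in contracted control legs. The uncontracted legs had 46.0, 36.4 and 46.5 CPM with the Myc label and 35.0, 35.1 and 47.0 CPM with the control label. The legs did not overlap, and contracted control 1 was the lowest contracted library. The averaged log2 change was 1.17 ± 0.14 (edgeR adjusted p = 4.04e-06), that is, 2.25-fold. It was 1.17 ± 0.20 in both genotypes (adjusted p = 0.000578 in Myc animals and 0.000855 in controls), with a difference between genotypes of 0.00 ± 0.31. The ratio between the legs of 1 animal ran from 1.72 to 3.04.

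Amotl2 (chromosome 9, 102716672 to 102733418), a YAP target whose product, an angiomotin, in turn holds YAP in the cytoplasm, had a negative change that did not pass. It had 2.76, 6.67 and 1.80 CPM in contracted Myc legs and 5.60, 2.63 and 3.88 CPM in contracted control legs. In uncontracted legs it had 2.52, 9.42 and 4.65 CPM with the Myc label and 3.82, 10.8 and 4.89 CPM with the control label. The legs overlapped, and the uncontracted libraries numbered 2 stood highest in both genotypes. The averaged log2 change was -0.61 ± 0.40 (edgeR adjusted p = 0.428), and in Myc animals it was 0.11 without uncontracted Myc 2, against -0.55 ± 0.57 with it.

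**Figure D2:**
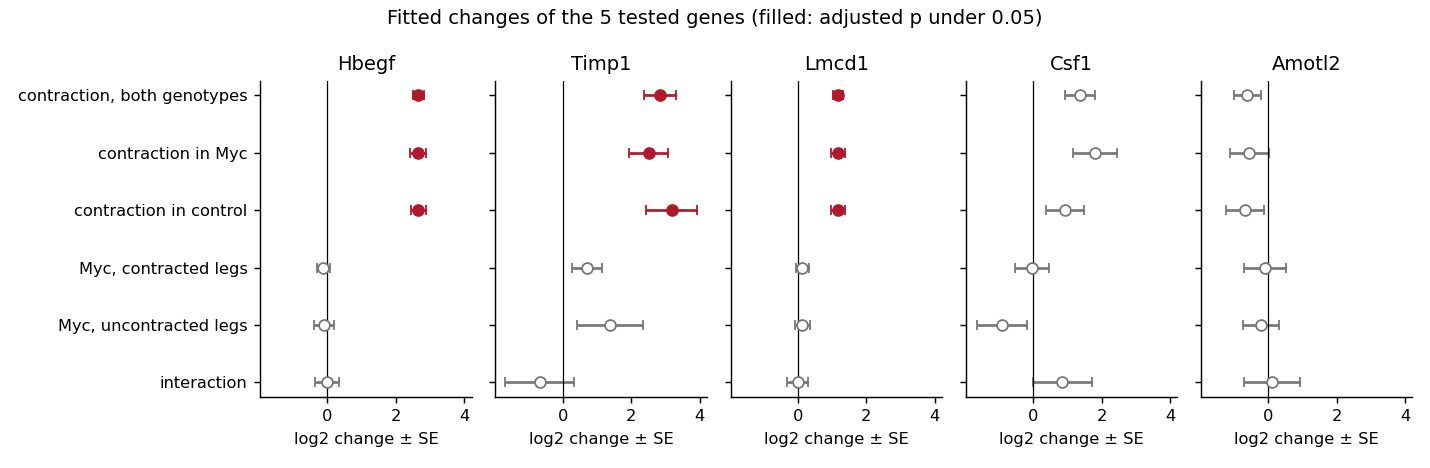
Fitted log2 changes with their SE (x axis) of the 5 tested genes in 6 comparisons (y axis), filled where the edgeR adjusted p was under 0.05. Hbegf, Timp1 and Lmcd1 passed in all 3 contraction comparisons, and none of the 5 passed in a Myc comparison or in the interaction. Timp1 and Csf1 entered the fit through their contracted reads.

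Of the set, 3 of the 5 tested genes rose with contraction on average and none fell, where 5.71% of all tested genes rose and 1.77% fell. The same 3 rose in Myc animals, where 3.45% of genes rose, and in controls, where 2.38% rose. The median log2 change of the 5 was 1.37, and that of all tested genes was -0.00337. Timp1 and Csf1 entered the fit through their contracted reads, so the tested genes are not a fair sample of the 9. With the genes below the filter included, 4 of 9 had no overlap between legs with contracted legs higher, against 2.94% of tested genes. In all 6 animals the contracted leg was higher for 5 of 9 (Hbegf, Lmcd1, Timp1, Cyr61 and Thbs1), against 6.83% of tested genes. For Thbs1 this includes control 3, with 2 reads in each leg. The shares of 2.94% and 6.83% leave out genes below the filter, unlike the counts over the 9. The members were also chosen with earlier results of these data known, so these counts support nothing about the set. Without the contracted libraries 2 and 3 of each genotype, Hbegf and Lmcd1 still passed on average and Timp1 did not (adjusted p = 0.150), at log2 changes of 2.37 on average, 1.18 in Myc animals and 3.55 in controls. Lmcd1 also did not pass in controls alone there (log2 change 0.61, adjusted p = 0.630). For Cyr61 the exact permutation p was then 0.0714, from a test with few possible splits, so that its p moves in large steps. Contracted Myc 1 and contracted control 1, the libraries kept, still lay above every uncontracted one (4.14 and 4.20 CPM, against at most 3.37). Both were the lowest contracted library of their genotype for Hbegf, Lmcd1 and Ankrd1. For Timp1 contracted control 1 was the highest of its group. The part of this in the changes without the other contracted libraries was not tested.

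None of the 5 tested genes passed for Myc against control in contracted or uncontracted legs, or in the interaction, where 0% of all genes passed in edgeR. At an unadjusted p under 0.05 there were 204, 421 and 331 genes, and DESeq2 called 0, 1 and 0. Since the Myc reads of 4 contracted libraries go against their labels, the contracted contrast and the interaction describe the labels, not the measured Myc level. The contraction changes within a genotype and the pairing of legs by animal, with its ratios and sign flips, rest on the same labels.

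**Figure D3:**
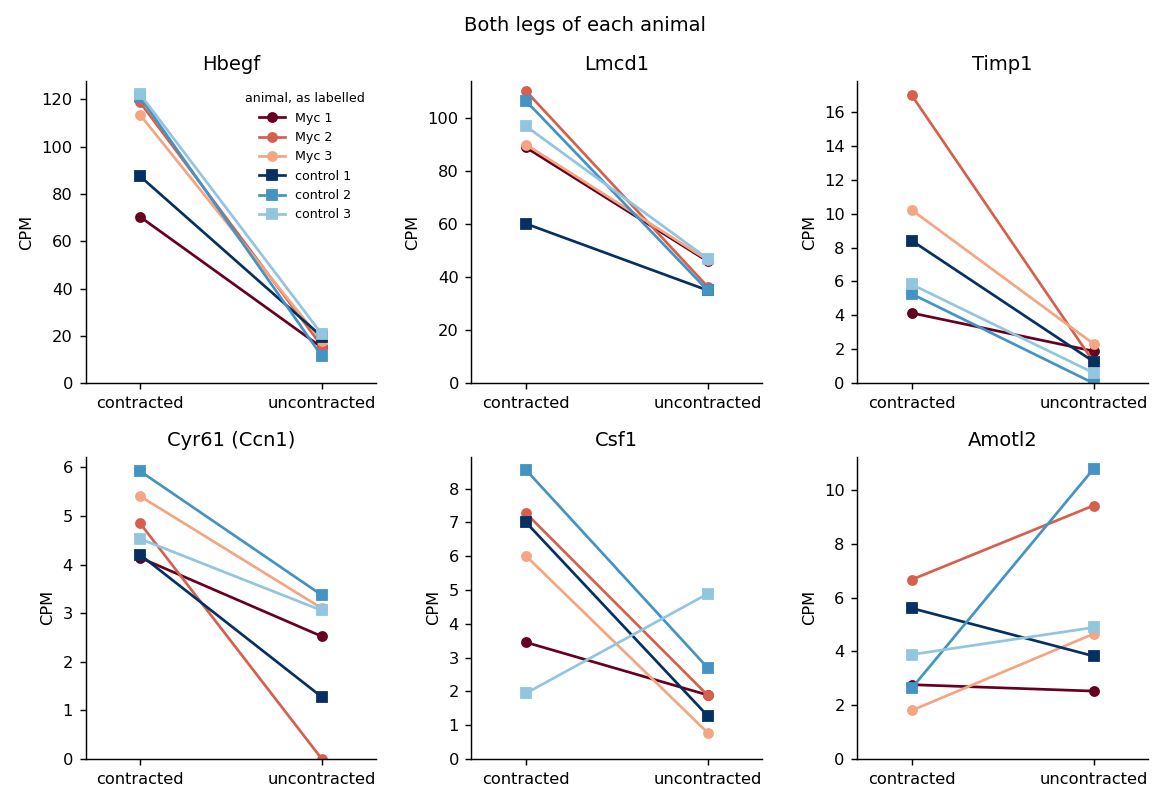
CPM (y axis, from 0) in the contracted and the uncontracted leg of each of the 6 animals, as labelled, for 6 of the genes, with a line joining the legs of 1 animal. For Hbegf, Lmcd1, Timp1 and Cyr61 all 6 lines fall towards the uncontracted leg, for Csf1 5 do, and for Amotl2 2 do.

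The pathways around these genes were described from lists, for the averaged contraction unless stated. Of the genes called, Ankrd1, Errfi1, Junb, Fos, Sdc4 and Adamts4 entered the fit through their contracted reads, as Timp1 and Csf1 did. Counts and medians of lists that include any of these genes therefore support nothing about the list. Without the 4 contracted libraries whose Myc reads go against their labels, the averaged calls of Ankrd1, Egr1, Junb, Fos and Rcan1 held, Adamts4 had too few reads to be fitted, and those of Errfi1, Vgll2, Tead1, Tgfb2, Actb, Acta2, Thbs4, Sdc4, Nfatc1 and Csf1r did not pass (adjusted p = 0.0566 for Sdc4 to 0.939 for Csf1r). The log2 change was then still 1.6 for Sdc4, while it was 0.37 for Tgfb2 and -0.16 for Csf1r. The contracted libraries kept, Myc 1 and control 1, had the lowest contracted Ankrd1 of their genotype (161 and 221 CPM). Beside the counts of lists and cell markers below, 5.71% of all tested genes rose and 1.77% fell. No list was tested against these shares. Of 11 ligands of the EGF family, 6 had any read and Hbegf alone had enough to be tested. Egf held 30 reads in contracted and 47 in uncontracted legs, and Areg, Ereg, Epgn, Nrg1 and Nrg3 held none. Of 13 EGF receptor, shedding and feedback genes 5 were tested and 1 rose, Errfi1, which encodes a feedback inhibitor of the EGF receptor. It had 6.90, 15.8 and 19.2 CPM in contracted Myc legs and 14.7, 15.8 and 9.70 CPM in contracted control legs, against 6.93, 5.65 and 6.2 CPM and 3.19, 6.74 and 4.28 CPM in uncontracted Myc and control legs. The averaged log2 change was 1.33 ± 0.27 (edgeR adjusted p = 0.00244), with contracted Myc 1 inside the uncontracted range. The receptor gene Egfr had 44 reads in contracted and 37 in uncontracted legs and was not tested, like Erbb2, Erbb3 and Erbb4.

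Among 23 Hippo pathway genes 13 were tested and 2 rose. Vgll2, which encodes a TEAD cofactor of muscle, changed by 0.63 ± 0.13 on the log2 scale (edgeR adjusted p = 0.00282), and the TEAD gene Tead1 by 0.47 ± 0.12 (adjusted p = 0.0209). Tead1 did not pass in DESeq2 (0.0786) or without contracted control 2, uncontracted Myc 2 or uncontracted control 2 (0.0637 to 0.0919). The list's median was 0.06. Yap1 (0.47 ± 0.21) and Wwtr1 (0.06 ± 0.23), named for their role and not by their values, did not pass (adjusted p = 0.219 and 0.933). Of 26 YAP target genes 13 were tested and 2 rose, with a median of 0.20. These were Ankrd1, which encodes a titin-linked stress protein (5.88 ± 0.29, adjusted p = 1.15e-11), and Tgfb2 (0.85 ± 0.18, adjusted p = 0.00456). Genes such as Axl (-0.12 ± 0.16), Crim1 (0.30 ± 0.17) and Ptpn14 (0.09 ± 0.24) did not pass.

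Of 22 targets of SRF and its MRTF cofactors 16 were tested, 4 rose and 1 fell, with a median of 0.09. Egr1 (3.95 ± 0.30, edgeR adjusted p = 5.13e-09) and Junb (3.51 ± 0.39, adjusted p = 1.58e-06) rose, and Fos had 161 reads in contracted and 16 in uncontracted legs (adjusted p = 2.53e-05). Fos held 0 reads in every uncontracted Myc leg and in uncontracted control 3, and did not pass in controls alone (2.12 ± 0.57, edgeR adjusted p = 0.0542). The cytoskeletal actin gene Actb rose by 0.44 ± 0.13 (adjusted p = 0.0423), a call lost with the animal as a block (0.0615), with robust dispersions (0.10), with library totals alone (0.0690), and on leaving out any library but contracted Myc 1, contracted control 1, uncontracted Myc 1 or uncontracted control 3. The smooth muscle actin gene Acta2 fell by 0.55 ± 0.13 (adjusted p = 0.0116).

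Among 22 matricellular genes 8 were tested and 1 rose, Thbs4, a thrombospondin of muscle and tendon (0.67 ± 0.17, edgeR adjusted p = 0.0173, and 0.0513 without uncontracted Myc 3). Sparc (0.22 ± 0.14) and Thbs2 (0.30 ± 0.29) did not pass. Of 17 integrins and other receptors of these proteins 10 were tested and 1 rose, the heparan sulphate proteoglycan gene Sdc4 (1.6 ± 0.30, adjusted p = 0.00102). It had 9.66, 12.7 and 17.4 CPM in contracted Myc legs and 15.4, 9.87 and 8.41 CPM in contracted control legs, against 3.78, 5.65 and 5.42 CPM in uncontracted Myc legs and 1.91, 6.07 and 1.83 CPM in uncontracted control legs. The thrombospondin receptor genes Cd36 (-0.06 ± 0.15) and Cd47 (-0.06 ± 0.17) did not pass.

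Of 20 TIMPs, metalloproteinases and plasminogen activation genes 12 were tested and 2 rose, with a median of 0.14. Besides Timp1 this was Adamts4, which encodes an aggrecan-cleaving protease. Adamts4 had 68 reads in contracted and 4 in uncontracted legs, with 0 reads in contracted Myc 1 and in all 3 uncontracted Myc legs (edgeR adjusted p = 0.00202). It passed in Myc animals (edgeR adjusted p = 0.00887) and did not in controls alone (2.60 ± 0.99, adjusted p = 0.233). Timp1 and Adamts4 both entered the fit through their contracted reads, so the list's count and median support nothing about the list. Timp2 (-0.05 ± 0.14), Timp3 (0.15 ± 0.11) and Timp4 (-0.51 ± 0.16, adjusted p = 0.0661) did not pass.

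Of 16 calcineurin and LMCD1 partner genes 13 were tested and 3 rose on average, with a median of 0.05. Besides Lmcd1 these were Rcan1, an inhibitor of calcineurin that its own pathway induces (1.71 ± 0.17, edgeR adjusted p = 2.79e-07), and Nfatc1 (1.17 ± 0.22, adjusted p = 0.00112). Csrp3, a muscle LIM protein gene, rose in Myc animals (0.80 ± 0.22, adjusted p = 0.0383) and did not pass on average (0.44 ± 0.15, adjusted p = 0.0881). On average Csrp3 passed with no low-count filter (0.0122), without contracted Myc 1 (0.0422) and without uncontracted Myc 1 (0.0318). Gata6 had 1 read in contracted and 1 in uncontracted legs. Of 15 TGF-beta response genes 7 were tested and 1 rose on average, Tgfb2, with a median of 0.29. The receptor gene Tgfbr2 rose in Myc animals (1.94 ± 0.51, adjusted p = 0.0338) and did not pass on average (0.88 ± 0.35, adjusted p = 0.144). It held 34 reads in contracted and 8 in uncontracted Myc legs, against 21 and 25 in controls. Neither Csrp3 nor Tgfbr2 passed in the interaction, where no gene did.

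Of 11 genes of the CSF1 axis 3 were tested, with a median of -0.29. The CSF1 receptor gene Csf1r fell by 0.54 ± 0.15 (edgeR adjusted p = 0.0293), a call lost with library totals alone (0.0506) and without any 1 of 7 libraries (0.0632 to 0.0977, namely contracted Myc 2 and 3, contracted control 2 and 3, uncontracted Myc 2 and 3, and uncontracted control 3). The second CSF1 receptor ligand gene, Il34, had -0.29 ± 0.22. Among the chemokine genes too sparse to test, Cxcl5 held 19 reads in contracted and 0 in uncontracted legs, Ccl7 17 and 0, and Cxcl1 9 and 0.

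**Figure D4:**
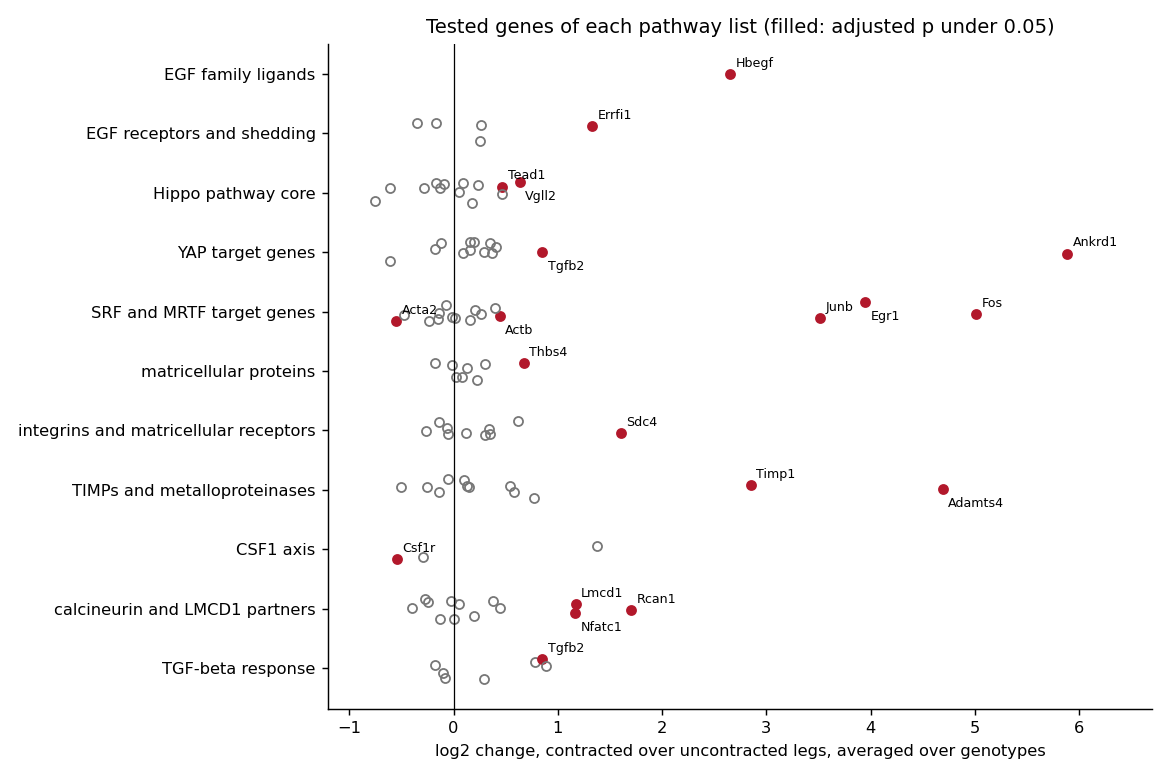
Averaged log2 change of contracted over uncontracted legs (x axis) of each tested gene in 11 lists (y axis), filled and named where the edgeR adjusted p was under 0.05. Between 1 and 5 genes of a list are filled, with Ankrd1 farthest to the right at 5.88.

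In bulk muscle, fewer cells of a type and less RNA per cell cannot be told apart, and several of these genes are made by cells other than fibres. Of 5 neutrophil markers 3 had reads (Csf3r and Ly6g were at 0), and their summed level was 4.85 to 67.3 CPM in contracted and 0 to 3.66 CPM in uncontracted legs. In order of falling Timp1, the contracted legs were Myc 2, Myc 3, control 1, control 3, control 2 and Myc 1. Their neutrophil sums were 4.85, 50.5, 57.4, 67.3, 7.24 and 19.3 CPM in that order. The 6 macrophage markers summed to 59.2 to 91.0 CPM in contracted and 73.1 to 122 CPM in uncontracted legs, with Cd68 higher (1.70 ± 0.40) and C1qa lower (-0.60 ± 0.16). The C1qa call was lost without any 1 of 5 libraries, and the Cd68 call without contracted control 3. By genotype, Cd68 passed in Myc animals (edgeR adjusted p = 0.0226) and did not in controls alone (1.08 ± 0.56, adjusted p = 0.421). Cd68 entered the fit through its contracted reads. The 6 fibroblast markers summed to 638 to 1339 CPM in contracted and 615 to 1540 CPM in uncontracted legs, and none of the 5 tested passed. Sums overlapped between legs also for 5 endothelial (64.4 to 93.4 and 76.7 to 86.7 CPM), 5 tendon (203 to 276 and 199 to 257 CPM), 4 satellite cell (12.9 to 18.2 and 11.3 to 19.5 CPM), 4 platelet (5.26 to 9.70 and 5.10 to 9.77 CPM) and 6 smooth muscle and pericyte markers (124 to 168 and 161 to 200 CPM), contracted first. The 2 tested neutrophil markers passed as higher, S100a8 with 216 reads in contracted and 6 in uncontracted legs (edgeR adjusted p = 0.000249) and S100a9 with 88 and 1 (0.000885). Both markers entered the fit through their contracted reads. The 4 haemoglobin genes summed to 397 to 991 CPM in contracted and 306 to 457 CPM in uncontracted legs, and all 4 passed as higher, with log2 changes of 0.59 for Hbb-bs to 0.91 for Hbb-bt. With robust dispersions neither neutrophil marker and, of the haemoglobin genes, only Hba-a1 passed. The Hbb-bs call was also lost in DESeq2, with the animal as a block and under the stricter filter, and those of Hbb-bs and Hba-a2 on leaving out any of several single libraries. The part of these cells in the changes of Timp1 and Csf1 was not tested.

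The genes whose log2 CPM followed Hbegf most closely over the 12 libraries, among 6362 genes with a mean of at least 5 CPM, were Ankrd1 (Pearson r = 0.992), Klf5 (0.988), Klhl40 (0.987), Mustn1 (0.984) and Homer1 (0.983). All 5 rose with contraction, and the libraries share the gap between legs, so that 104 genes had r over 0.9, Lmcd1 among them (0.941). Within the 6 contracted libraries r was 0.952 for Ankrd1, 0.943 for Klf5, 0.905 for Klhl40, 0.756 for Mustn1 and 0.705 for Homer1, as a description of these libraries. Within the 6 uncontracted libraries it was lower, at 0.579, 0.579, 0.770, 0.260 and 0.643 for the same genes in that order. Ankrd1 had 161, 482 and 320 CPM in contracted Myc legs and 221, 353 and 413 CPM in contracted control legs, so that, as for Hbegf, the libraries numbered 1 were the lowest of each genotype. It had 6.30, 6.28 and 4.65 CPM in uncontracted Myc legs and 3.82, 2.70 and 8.55 CPM in uncontracted control legs.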

How the data were processed

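Libraries were made from Trizol RNA with a QuantSeq 3' mRNA kit, per the labels' protocols, and the values are whole read counts per gene as the authors deposited them, not normalized. The submitters' processing notes list FastQC 0.11.5, STAR 2.5.2a, SAMtools, HTSeq 0.6.0 and mm10, without role or order. The annotation, strand setting and filters are not given in the sources used here. Since 3' reads do not scale with transcript length, levels were not compared between genes. Symbols were matched for 47224 of 47643 identifiers, and positions and overlaps come from GENCODE M21 (GRCm38).

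Counts were fitted with edgeR 4.0.16 in R 4.3.3 (TMM, genes kept by filterByExpr at 10 reads, quasi-likelihood F test, 2-sided, 4 group means over all 12 libraries) with Benjamini-Hochberg adjustment over 6676 genes and a threshold of 0.05. SE was taken as the absolute log2 change over the root of F, and CPM uses TMM-scaled totals. Steps were tested on simulated counts. Members, lists and tests were chosen with earlier results of these data known. Named genes are the 9 members, Myc, up to 4 genes per list that passed a contraction comparison, and the 5 genes most like Hbegf by Pearson correlation of log2 CPM (prior count 2), other genes being named after their values were seen.

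Same-numbered legs of a genotype come from 1 animal, per the titles. Their deviations from group means correlated at -0.122 to 0.112, with a consensus correlation of 0.00101 in limma 3.58.1. Nothing says how animals were housed or processed, so p-values measure the spread between these animals. A count of 0 allows up to 3 reads, that is, 1.80 to 2.32 CPM. Intervals at 95% are exact and hold for counting error alone, because no molecular identifiers are named in the labels and PCR copies may be counted. Alternatives were other scalings, filters, DESeq2 1.42.0, robust dispersions, the animal as a block, 6 libraries alone, and libraries left out. Sign flips within animals and pooled ratios without 1 library were added after seeing the data. Of the listed genes, 1 was left out and is not reported here.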

Additional observations from a re-analysis of the deposited data

How the results depend on the processing

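Hbegf kept its direction and passed under every alternative run, with averaged log2 changes of 2.53 to 2.75 when 1 library was left out, and Lmcd1 did so in the averaged comparison (1.09 to 1.26). With the animal as a replicate block 443 genes passed on average, 172 in controls and 228 in Myc animals, and no call of the 5 fitted members changed. For members below the filter, sign flips within animals gave p = 0.125 for Ctgf and 0.0312 for Thbs1, against 0.0368 and 0.0866 by exact permutation without the pairing. Timp1 could not be fitted under the stricter filter or in 6 libraries alone, where it had too few reads. Without the 4 contracted libraries numbered 2 and 3, which leaves 1 contracted library per genotype assumed to vary like the other groups, 107 genes passed on average, 67 in controls and 59 in Myc animals, with 1 of the 9 genes passing in controls, and 6 genes for Myc in uncontracted legs. There Yap1 was at -0.084 and Tnc at -1.2 CPM, both reversed, and the cause was not tested. With no low-count filter 305 genes passed in controls, 433 in Myc animals, 24 for Myc in uncontracted legs, 5 in contracted legs and 18 in the interaction. For Myc in uncontracted legs robust dispersions gave 1 gene, DESeq2 1 and 6 libraries alone 2. Leaving out 1 library gave 116 to 313 genes in controls (lowest without contracted control 3, highest without contracted control 1), 147 to 517 in Myc animals (lowest without contracted Myc 3, highest without contracted Myc 1), 0 to 2 for Myc in uncontracted legs and 0 to 4 in the interaction. It gave log2 changes of -1.28 to 0.11 for Amotl2 in Myc animals and -0.12 to 0.20 for Wwtr1 on average. At this depth changes in Cyr61, Ctgf, Thbs1 and Tnc rest on 67 reads or fewer per gene.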
